A study of Mus musculus with 12 samples.

Results

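The 49 genes described here encode the DNA replication machinery and the factors of S phase, the part of the cell cycle in which the genome is copied. They were chosen by name from a list covering origin licensing, the replicative helicase, the polymerases, the sliding clamp and its loader, nucleotide supply and chromatin assembly. The choice went by name and role, but earlier results of these data were known when it was made. All 49 have a row among the 32698 gene symbols of the count table, and all 49 were among the 13196 genes with enough reads to test. The libraries are RNA sequencing of mouse CD4+ T cells taken at 2 times after naive cells were stimulated in culture with antibodies against CD3, part of the T cell receptor complex, and CD28, a co-stimulatory receptor. There were 3 libraries in each of 4 groups: Keap1 knockout (KKO) cells at 48 h, wild-type (WT) cells at 48 h, KKO cells at 24 h and WT cells at 24 h. All 4 groups received the same stimulation, and there is no unstimulated group. Keap1 is the adaptor through which the transcription factor NRF2 is marked for degradation. The sources used here give no strain, age, deleted allele or Cre driver for the knockout. They do not say whether replicates came from separate mice or cultures. The p-values therefore measure only the spread between these libraries, which may be partly technical. The sex-linked transcripts given below differ within each group, so its libraries did not all come from the same mouse. Whether each came from a separate mouse is not known.

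In G1 the origin recognition complex, CDC6 and CDT1 load the MCM2-7 helicase onto DNA, which licenses each origin to fire once. At the start of S phase CDC45 and the GINS complex join MCM2-7 to form the active CMG helicase, and primase and DNA polymerases alpha, delta and epsilon copy the strands with the PCNA clamp, its loader RFC and the single-strand binding protein RPA. Many of these genes are transcribed under E2F factors, which cyclin E and its kinase help release from RB, and T cells leaving quiescence after receptor stimulation switch them on before their first division.

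Library totals were 17.8 to 32.6 M (mega) counts, and a member had between 226 and 24482 expected counts in a library. Levels are given as CPM, counts per M on library sizes scaled by the TMM method, with the SD over 3 libraries. Keap1 itself had 22.5, 20.7 and 20.2 CPM in KKO and 124, 132 and 122 CPM in WT cells at 48 h, and 16.5, 15.7 and 17.5 CPM in KKO and 106, 109 and 106 CPM in WT cells at 24 h, so all 12 libraries carry the Keap1 level of their label. Cd4 lay between 461 and 549 CPM in every library, and macrophage markers summed to at most 0.411 CPM. B cell markers were low but differed by genotype, with summed levels of 53.1 to 79.7 CPM in KKO and 26.1 to 36.4 CPM in WT cells at 48 h, and 50.4 to 70.0 CPM in KKO and 25.2 to 31.8 CPM in WT cells at 24 h. The 2 CD8 T cell markers summed to 12.7 to 13.4 CPM in KKO and 8.32 to 10.6 CPM in WT cells at 48 h, and 9.36 to 10.8 CPM in KKO and 7.04 to 8.11 CPM in WT cells at 24 h. At 48 h both CD8 markers, 8 of the 9 tested B cell markers and 1 of the 2 tested dendritic cell markers were called higher in KKO cells. Of all genes, 12.4% were. At 24 h 0, 4 and 0 of these markers were, where 1.89% of all genes were. The part of these cells in the results below was not tested. Every group mixed libraries with Xist and libraries with Y-linked transcripts. A pair of libraries had both, the third KKO replicate of 48 h, with Xist at 105 and summed Y-linked transcripts at 149 CPM, and the first KKO replicate of 24 h, with Xist at 76.2 and summed Y-linked transcripts at 125 CPM. Counts of called members are given with and without them. Those of cell markers and of the other gene lists are given only from the fit of all 12 libraries.

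Nearly all of the replication genes were lower at 48 h than at 24 h in both genotypes. Between the genotypes at 48 h, 27 of the 49 were called lower in KKO than in WT cells and 22 were not called, a count that moved with single libraries, and at 24 h 0 were called. Summed over the 49 genes, the level was 6241, 7596 and 6397 CPM in KKO cells and 8402, 7990 and 7510 CPM in WT cells at 48 h. At 24 h it was 11963, 11109 and 11433 CPM in KKO cells and 11284, 11772 and 11719 CPM in WT cells. The 24 h libraries of both genotypes overlapped and lay above every 48 h library, and KKO replicate 2 at 48 h reached above the lowest WT library of that time. The sums correspond to 0.674% ± 0.0741 of a library in KKO and 0.797% ± 0.0446 in WT cells at 48 h, and 1.15% ± 0.0431 in KKO and 1.16% ± 0.0267 in WT cells at 24 h (SD, n = 3 each). In bulk RNA, fewer cells in S phase and less of these transcripts per cell cannot be told apart.

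**Figure D1:**
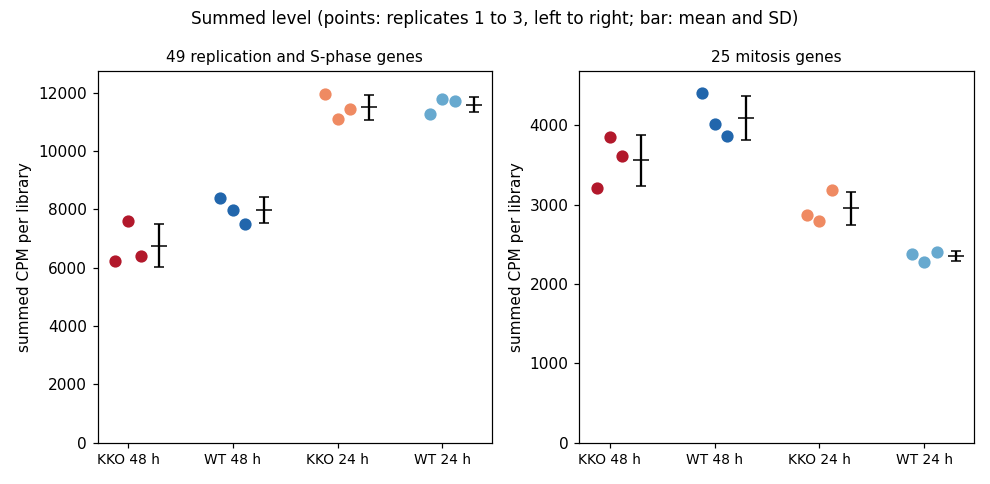
Summed CPM per library (y axes, linear from 0) of the 49 replication and S-phase genes (left) and of 25 mitosis genes (right) in the 4 groups, with replicates 1 to 3 from left to right as points and the mean with its SD as a bar. The replication sums at 48 h lie between 6241 and 8402 CPM, all below the 24 h sums of 11109 to 11963 CPM, while the mitosis sums are lowest in WT cells at 24 h.

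Tests used edgeR's quasi-likelihood model over all 12 libraries, and a gene is called when its p-value, adjusted by the Benjamini-Hochberg method over all 13196 genes, is under 0.05. Fold changes are log2 values with a standard error derived from the test, as the absolute log2 value divided by the square root of the F statistic. At 48 h against 24 h in KKO cells, 48 of the 49 members were called lower and 1, Tk1, higher, where 33.4% of all genes were called lower and 34.4% higher. In WT cells 47 were called lower, Tk1 was again called higher and Dut was not called, where 29.7% of all genes were called lower and 31% higher. The median log2 change was -0.75 in KKO cells, a 1.69-fold lower level, and -0.52 in WT cells, a 1.43-fold lower level, against 0.00 for all genes in KKO cells and -0.00 in WT cells. For 48 members all 3 libraries at 48 h lay below all 3 at 24 h in KKO cells, against 34.7% of all genes. The same number did in WT cells, against 34% of all genes. Without any 1 library the counts called lower or higher were 49 in KKO cells and 46 to 49 in WT cells.

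**Figure D2:**
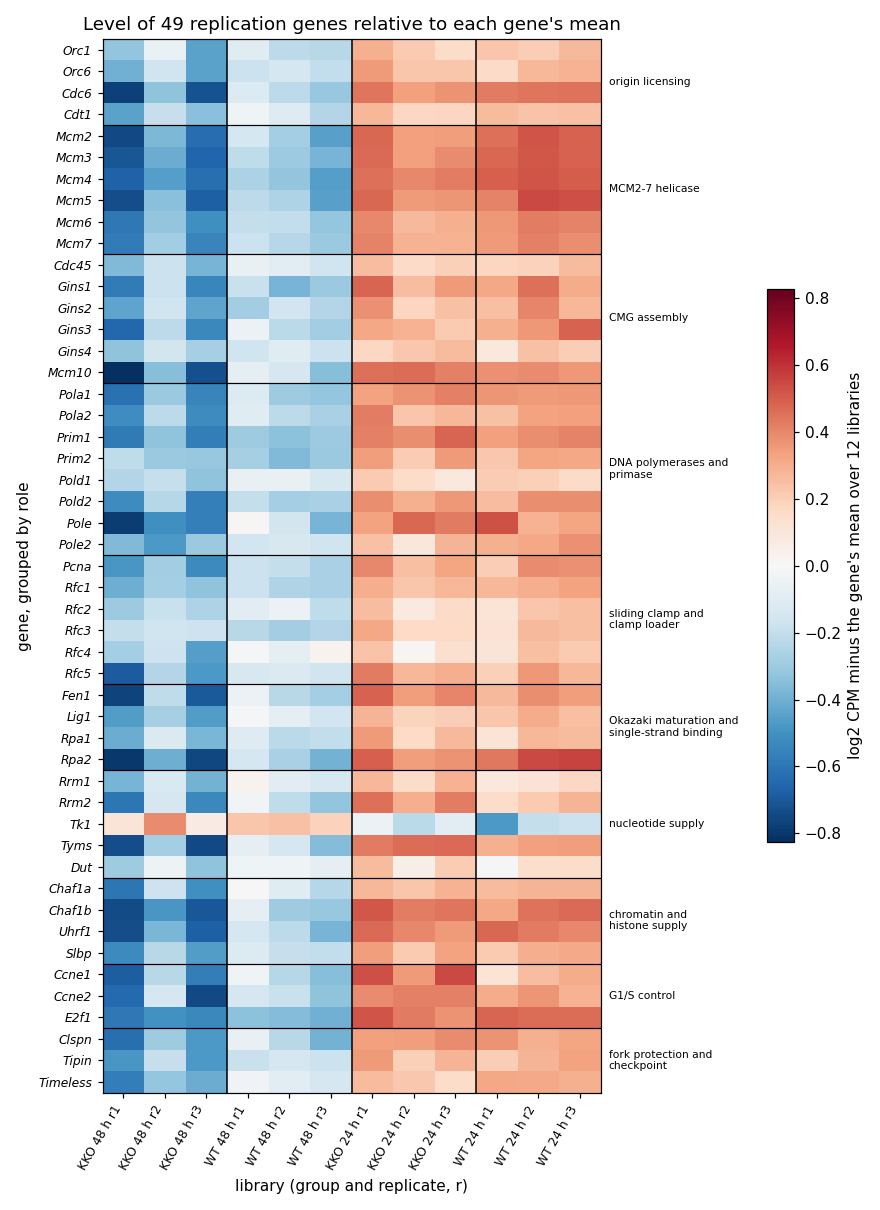
Level of each of the 49 genes (rows, grouped by role) in each of the 12 libraries (columns) as log2 CPM minus the gene's mean over the libraries (colour scale, log2 units). The 24 h columns are above the mean for nearly all genes and the 48 h columns below it, most deeply in KKO replicates 1 and 3, and Tk1 runs the other way.

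The decline over time covered every step of replication, and 6 members were at least 2-fold lower at 48 h in KKO cells. Chaf1b (chr16:93883900-93906115; positions are RefSeq's on build GRCm38), the middle subunit of the chromatin assembly factor CAF-1 that places histones behind the fork, had 41.0, 48.9 and 42.0 CPM at 48 h and 97.5, 91.4 and 92.7 CPM at 24 h in KKO cells, a log2 change of -1.10 ± 0.08 (adjusted p = 2.35e-08). In WT cells it had 64.5, 55.7 and 54.8 CPM at 48 h and 85.1, 93.2 and 94.3 CPM at 24 h, a change of -0.64 ± 0.08 (adjusted p = 4.64e-06). The times did not overlap in either genotype. The other 5 of at least 2-fold were Mcm10 at -1.07 ± 0.10, Rpa2 at -1.05 ± 0.09, Pole at -1.03 ± 0.10, Tyms at -1.03 ± 0.10 and Mcm4 at -1.01 ± 0.07. In WT cells no member reached 2-fold, and the deepest change was that of Mcm4 at -0.85 ± 0.07, E2f1 at -0.83 ± 0.05, Mcm5 at -0.80 ± 0.09 and Mcm3 at -0.79 ± 0.07. Others among the 12 deepest in KKO cells were Uhrf1 at -0.99 ± 0.09, Mcm3 at -0.99 ± 0.07, Cdc6 at -0.98 ± 0.09, Mcm5 at -0.97 ± 0.09 and Ccne1 at -0.96 ± 0.11. In WT cells they were Rpa2 at -0.78 ± 0.09, Mcm2 at -0.77 ± 0.09, Prim1 at -0.69 ± 0.06, Uhrf1 at -0.68 ± 0.09, Cdc6 at -0.65 ± 0.09, Gins1 at -0.65 ± 0.10 and Mcm6 at -0.63 ± 0.07.

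The MCM2-7 subunits, which form the ring of the helicase, moved together. Mcm4 had 285, 331 and 294 CPM at 48 h and 622, 597 and 608 CPM at 24 h in KKO cells. In WT cells Mcm4 had 378, 362 and 330.1 CPM at 48 h and 639.8, 649 and 642 CPM at 24 h. All 6 subunits were called lower at 48 h in both genotypes, with log2 changes of -1.01 to -0.79 in KKO and -0.85 to -0.62 in WT cells. E2f1, one of the transcription factors that drive replication genes, had 42.1, 45.0 and 43.9 CPM at 48 h and 91.2, 85.7 and 82.1 CPM at 24 h in KKO cells, a change of -0.98 ± 0.05 (adjusted p = 1.82e-09). In WT cells E2f1 had 50.3, 49.6 and 48.3 CPM at 48 h and 88.6, 87.6 and 87.5 CPM at 24 h. E2f1 varied little between the libraries of a group, and its times were far apart in both genotypes.

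Tk1 was the exception. Tk1 (chr11:117815519-117826087), the cytosolic thymidine kinase of the salvage pathway, had 70.4, 85.6 and 68.4 CPM at 48 h and 63.1, 55.9 and 61.1 CPM at 24 h in KKO cells, and it rose by 0.31 ± 0.09 on the log2 scale (adjusted p = 0.00651). In WT cells it had 76.5, 77.4 and 74.4 CPM at 48 h and 47.0, 57.1 and 57.6 CPM at 24 h, a rise of 0.50 ± 0.09 (adjusted p = 2.56e-04). Every 48 h library lay above every 24 h library of its genotype. Dut, the enzyme that keeps dUTP out of DNA, had 205, 244 and 199 CPM at 48 h and 301, 259 and 291 CPM at 24 h in KKO cells, a change of -0.39 ± 0.08 (adjusted p = 4.88e-04). Dut had 245, 245 and 238 CPM at 48 h and 249, 278 and 279 CPM at 24 h in WT cells, a change of -0.15 ± 0.08 that was not called (adjusted p = 0.124).

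**Figure D3:**
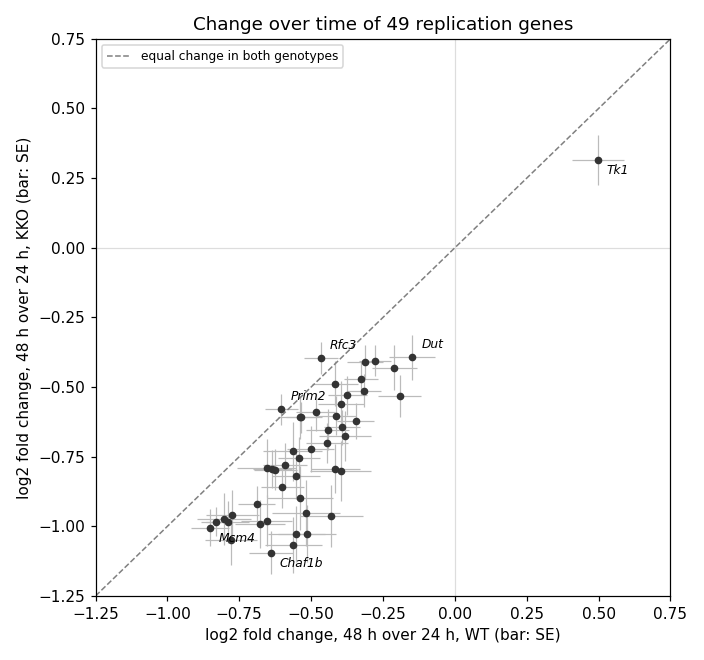
Log2 fold change at 48 h over 24 h in KKO cells (y axis) against that in WT cells (x axis) for the 49 genes, with bars for the standard errors and a dashed line where both would be equal. In 47 of 49 genes the point lies below the line, and only Tk1 lies above 0 on both axes.

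At 48 h, 27 of the 49 members were called lower in KKO than in WT cells and 0 higher, where 11.9% of all genes were called lower. The median log2 fold change was -0.23, a 1.17-fold lower level, against -0.00 for all genes, and the members ran from -0.45 for Pole to 0.08 for Rfc3. In 19 members all 3 KKO libraries lay below all 3 WT libraries, against 16.2% of all genes. The 27 called members cover every role. They were Cdc6 in licensing, all 6 MCM2-7 subunits, and Cdc45 and Mcm10 in helicase activation. In synthesis they were Pole, Pole2, Pola1 and Pold1 among the polymerases, Pcna, Rfc4 and Rfc5 in the clamp and its loader, Fen1, Lig1 and Rpa2 in lagging-strand work. The others were Rrm1 and Tyms in nucleotide supply, Chaf1a, Chaf1b, Uhrf1 and Slbp in chromatin, E2f1 in control of S-phase entry and Timeless at the fork.

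The size of that count depended on single libraries. Of the 48 h libraries, leaving out KKO replicate 2 gave 46 members called lower, where 21.1% of all genes were, and leaving out WT replicate 3 gave 30, where 12.9% were. Leaving out KKO replicate 1 gave 5 (10.2% of members, where 4.75% of all genes were called lower), KKO replicate 3 gave 6 (12.2%, where 5.88% were), WT replicate 1 gave 5 (10.2%, where 5.70% were) and WT replicate 2 gave 9 (18.4%, where 5.85% were). Without the 2 libraries that had transcripts of both sexes it was 4 (8.16%, where 4.84% of all genes were called lower), namely Chaf1b, Lig1, Pole and Timeless. A fit on the 6 libraries of 48 h alone called these 4 too, where 5.13% of all genes were called lower.

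**Figure D4:**
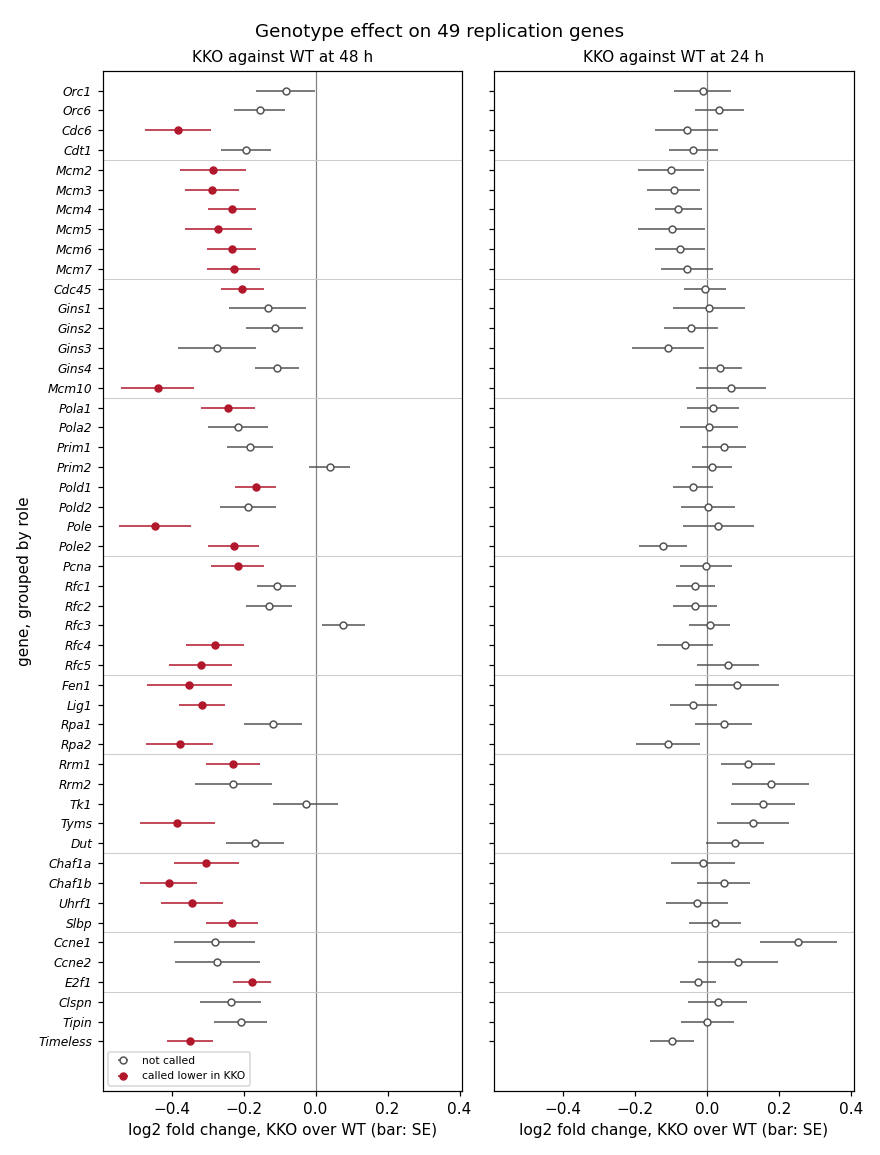
Log2 fold change of KKO over WT cells (x axes) at 48 h (left) and 24 h (right) for the 49 genes (rows, grouped by role), with standard errors as bars and filled points for called genes. At 48 h nearly all points lie left of 0 and 27 are called, while at 24 h the points lie on both sides of 0 and 0 are called.

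Among the licensing factors, Cdc6, the ATPase that helps load MCM2-7, had 56.1, 75.8 and 58.1 CPM in KKO and 88.4, 82.1 and 76.8 CPM in WT cells at 48 h, a log2 fold change of -0.38 ± 0.09 (adjusted p = 0.00949). The highest KKO library lay just under the lowest WT library. Orc1 and Orc6, subunits of the origin recognition complex, and Cdt1, the partner of CDC6 in loading, were not called, at -0.08 ± 0.08, -0.15 ± 0.07 and -0.19 ± 0.07. The 6 MCM2-7 subunits were all called lower, with changes of -0.29 ± 0.07 for Mcm3, -0.29 ± 0.09 for Mcm2, -0.27 ± 0.09 for Mcm5, -0.23 ± 0.07 for Mcm4 (adjusted p = 0.0203), -0.23 ± 0.07 for Mcm6 and -0.23 ± 0.07 for Mcm7. Mcm3 had 323, 397 and 335 CPM in KKO and 455, 427 and 404 CPM in WT cells (adjusted p = 0.0130). Mcm6 had 367, 442 and 389.7 CPM in KKO and 483, 481 and 445 CPM in WT cells (adjusted p = 0.0247). In both, replicate 2 was the KKO library nearest to WT, and the groups did not overlap. Mcm5 just passed the threshold (adjusted p = 0.0478), and its groups overlapped, with 306, 401 and 319 CPM in KKO and 439, 426 and 373 CPM in WT cells.

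Of the factors that turn MCM2-7 into the moving helicase, Mcm10 (chr2:4990724-5012791) had 66.9, 93.1 and 71.7 CPM in KKO and 113, 108 and 93.1 CPM in WT cells, a change of -0.44 ± 0.10 (adjusted p = 0.00745). The top KKO library and the bottom WT library were equal to 3 digits. Cdc45 had 79.6, 90.5 and 78.3 CPM in KKO and 98.2, 96.2 and 91.4 CPM in WT cells, a change of -0.20 ± 0.06 (adjusted p = 0.0260). The 4 GINS genes, which encode the ring that completes CMG, were not called, with changes of -0.27 ± 0.11 for Gins3, -0.13 ± 0.11 for Gins1, -0.11 ± 0.08 for Gins2 and -0.11 ± 0.06 for Gins4. Gins3 and Gins1 had the lowest CPM of all members, and none of the 4 had a p-value that passed after adjustment.

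Of the 8 polymerase and primase genes, 4 were called lower. Pole (chr5:110286319-110337468), the catalytic subunit of the leading-strand polymerase epsilon, had 97.5, 119 and 114 CPM in KKO and 169, 151 and 129 CPM in WT cells, the deepest change of the set at -0.45 ± 0.10 (adjusted p = 0.00650). All KKO libraries lay below all WT libraries, and the WT libraries were themselves spread. Its accessory subunit Pole2 had 23.1, 21.4 and 24.0 CPM in KKO and 26.7, 27.2 and 26.5 CPM in WT cells, a change of -0.23 ± 0.07 (adjusted p = 0.0306), and here replicate 2 was the lowest KKO library. Pola1, the catalytic subunit of polymerase alpha, had 66.2, 82.3 and 69.6 CPM in KKO and 93.9, 82.8 and 81.3 CPM in WT cells, and KKO replicate 2 lay above the lowest WT library. It changed by -0.24 ± 0.08 (adjusted p = 0.0310) and Pold1, that of polymerase delta, by -0.17 ± 0.06 (adjusted p = 0.0462), while their partners Pola2 at -0.22 ± 0.08 and Pold2 at -0.19 ± 0.08 were not called. The primase pair was not called either, with Prim1 at -0.18 ± 0.06 and Prim2 at 0.04 ± 0.06. Prim2, the large subunit, had 64.9, 60.7 and 60.2 CPM in KKO and 62.0, 58.2 and 60.7 CPM in WT cells, with overlapping groups.

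Pcna, the clamp that tethers polymerases to DNA, had 406, 464 and 393 CPM in KKO and 501, 495 and 471 CPM in WT cells, a change of -0.22 ± 0.07 (adjusted p = 0.0438). Of the 5 loader subunits, Rfc5 and Rfc4 were called lower, and neither overlapped between the groups. Rfc5 had 61.2, 83.6 and 70.9 CPM in KKO and 90.0, 90.8 and 88.1 CPM in WT cells, a change of -0.32 ± 0.09 (adjusted p = 0.0188). Rfc4 had 30.6, 33.1 and 27.1 CPM in KKO and 36.9, 35.3 and 38.0 CPM in WT cells, a change of -0.28 ± 0.08 (adjusted p = 0.0220). Rfc3 was the only member with every KKO library above every WT library, at 49.3, 50.3 and 50.2 CPM in KKO and 48.2, 46.2 and 47.6 CPM in WT cells, but its change of 0.08 ± 0.06 was not called (adjusted p = 0.364). Rfc1 at -0.11 ± 0.05 and Rfc2 at -0.13 ± 0.06 were not called. On the lagging strand, Lig1, the ligase that seals Okazaki fragments, had 222, 254 and 222 CPM in KKO and 304, 289.8 and 275 CPM in WT cells, a change of -0.32 ± 0.06 (adjusted p = 0.00373). Rpa2, the middle subunit of the single-strand binding complex, had 46.9, 61.4 and 48.4 CPM in KKO and 73.7, 67.4 and 62.2 CPM in WT cells, a change of -0.38 ± 0.09 (adjusted p = 0.0110). Its partner Rpa1 at -0.12 ± 0.08 was not called. The groups did not overlap for Lig1 or Rpa2. Fen1, the flap endonuclease, had 101, 149 and 107 CPM in KKO and 167, 147 and 142 CPM in WT cells (log2 fold change -0.35 ± 0.12, adjusted p = 0.0461), and KKO replicate 2 stood far from the other KKO libraries and among the WT ones.

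In nucleotide supply, Tyms, which makes thymidylate, had 51.0, 69.8 and 50.7 CPM in KKO and 80.3, 76.9 and 66.2 CPM in WT cells, a change of -0.38 ± 0.10 (adjusted p = 0.0185), and replicate 2 overlapped with WT. Rrm1, the large subunit of ribonucleotide reductase, changed by -0.23 ± 0.07 (adjusted p = 0.0388), and the small subunit Rrm2 by -0.23 ± 0.11, which was not called (adjusted p = 0.131). Tk1 at -0.03 ± 0.09 (adjusted p = 0.854) and Dut at -0.17 ± 0.08 (adjusted p = 0.139) were not called. All 4 chromatin members were called lower. Chaf1b changed by -0.41 ± 0.08 (adjusted p = 0.00250), with no overlap between the libraries given above. Chaf1a, the large CAF-1 subunit, had 117, 158 and 125 CPM in KKO and 177, 166 and 151 CPM in WT cells, overlapping in 1 KKO library, a change of -0.30 ± 0.09 (adjusted p = 0.0263). Uhrf1, which brings the maintenance methyltransferase to newly copied DNA, had 311, 398 and 323 CPM in KKO and 468, 445 and 396 CPM in WT cells, a change of -0.34 ± 0.09 (adjusted p = 0.0112). Uhrf1 overlapped by a small margin through replicate 2. Slbp, which binds the stem-loop of replication-dependent histone mRNAs, had 115, 142 and 121 CPM in KKO and 154, 146 and 144 CPM in WT cells, a change of -0.23 ± 0.07 (adjusted p = 0.0327).

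Timeless (chr10:128232063-128252941), part of the fork protection complex, had the smallest p of the set between the genotypes at 48 h. It had 83.7, 99.5 and 93.6 CPM in KKO and 122, 117 and 113 CPM in WT cells at 48 h, a change of -0.35 ± 0.06 (adjusted p = 0.00173), and the groups were clearly apart. Its partner Tipin at -0.21 ± 0.07 and the checkpoint mediator Clspn at -0.24 ± 0.08 were not called. E2f1 was lower, at 43.7 ± 1.46 CPM in KKO and 49.4 ± 0.993 CPM in WT cells, a change of -0.18 ± 0.05 (adjusted p = 0.0284). Ccne1 and Ccne2, the E cyclins of S-phase entry, had changes of -0.28 ± 0.11 and -0.27 ± 0.12 that were not called.

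**Figure D5:**
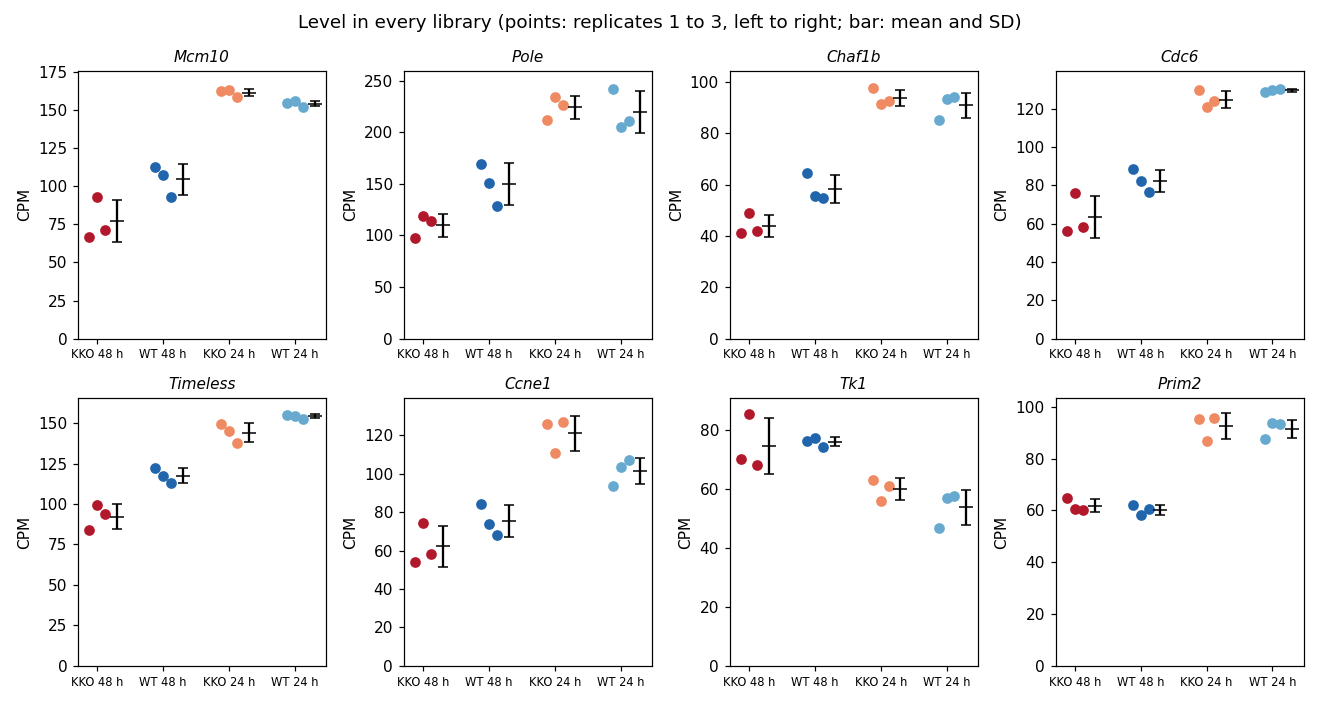
CPM (y axes, linear from 0) of 8 genes in the 4 groups, with replicates 1 to 3 from left to right as points and the mean with its SD as a bar. KKO replicate 2 at 48 h is the top KKO point of that time for Mcm10, Chaf1b, Cdc6, Timeless, Ccne1, Tk1 and Pole but not for Prim2, and Tk1 is highest at 48 h.

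The KKO libraries at 48 h did not behave alike. Replicate 2 was the highest of the 3 in 47 of the 49 members, against 37.9% of all genes. Replicates 1 and 3 lay below every WT library of that time in 47 members, against 30.3% of all genes, and replicate 2 did so in 19, against 29.8% of all genes. The median coefficient of variation of a member was 11.2% in KKO and 5.01% in WT cells at 48 h, and 4.95% in KKO and 3.56% in WT cells at 24 h. Y-linked transcripts summed to 2.83 CPM in replicate 2, against 181 and 149 CPM in replicates 1 and 3. Among libraries with Xist and nearly no Y-linked transcripts, KKO replicate 2 lay below both WT replicates 1 and 2 in 32 of the 49 members, against 39.6% of all genes, with a median log2 ratio to their mean of -0.10 over all members. Among libraries with Y-linked transcripts and nearly no Xist, KKO replicate 1 lay below WT replicate 3 in 47 of the 49, against 49.6% of all genes, with a median log2 ratio of -0.28. These are comparisons of single KKO libraries and carry no test.

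At 24 h, edgeR called 0 of the 49 members between KKO and WT cells, where 2.33% of all genes were called. DESeq2 and limma-voom also called 0. At an unadjusted p under 0.05 there was 1, Ccne1, against 11.2% of all genes. A fit on the 6 libraries of 24 h alone called 2, Ccne1 and Rrm2, where 524 of all 12627 genes tested were called. The median log2 fold change was 0.00, with 24 members below 0 and 25 above, and a range of -0.12 to 0.25. Ccne1 had 126, 111 and 127 CPM in KKO and 93.8, 104 and 107 CPM in WT cells, a change of 0.25 ± 0.11 (unadjusted p = 0.0346, adjusted p = 0.368). All KKO libraries lay above all WT libraries, as in 5 of the 49 members and 1311 of all 13196 genes. The next smallest p-values belonged to Pole2 at -0.12 ± 0.07, Tk1 at 0.16 ± 0.09, Rrm2 at 0.18 ± 0.11 and Timeless at -0.10 ± 0.06, and none was called. The 5 nucleotide supply genes had values of 0.08 to 0.18 and the 6 MCM2-7 genes of -0.10 to -0.05, none of them called. A p that misses the threshold does not show that the genotypes were alike at 24 h.

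The genotype effect at 48 h was then set against that at 24 h in the same fit, which also tests whether the change over time differed between the genotypes. The change over time was more negative in KKO than in WT cells in 47 of 49 members, with a median difference of -0.21 on the log2 scale against -0.01 over all genes. Of the members, 1 was called lower, where 2.72% of all genes were, and 21 had an unadjusted p under 0.05 with a lower value, where 12% of all genes did. The called gene was Chaf1b, whose genotype effect was -0.41 ± 0.08 at 48 h and 0.05 ± 0.07 at 24 h, a difference of -0.45 ± 0.11 (adjusted p = 0.0303). The next 4 were not called, with differences of -0.51 ± 0.14 for Mcm10 (adjusted p = 0.0559), -0.51 ± 0.14 for Tyms (adjusted p = 0.0609), -0.48 ± 0.14 for Pole (adjusted p = 0.0673) and -0.53 ± 0.16 for Ccne1 (adjusted p = 0.0692). Mcm10 had 163, 163 and 159 CPM in KKO and 155, 156 and 152 CPM in WT cells at 24 h, so that every KKO library was above every WT library at 24 h and below at 48 h. The first held for 1311 and the second for 2133 of all 13196 genes. With the replicate number within each genotype as a block in edgeR, Mcm10, Pole and Tyms were called lower (adjusted p = 0.0338, 0.0180 and 0.0408). Of all genes, 3.63% were. Chaf1b was not called with the block (adjusted p = 0.0516). In KKO cells this block joined unlike libraries. Replicate 1 had transcripts of both sexes at 24 h and nearly only Y-linked ones at 48 h, and replicate 3 the reverse. Leaving out KKO replicate 2 of 48 h gave 37 members called lower, where 14.4% of all genes were, and leaving out WT replicate 3 of that time gave 5, where 3.26% of all genes were. Leaving out any 1 of the other 10 libraries gave 0. It was 0 as well without the pair of libraries with transcripts of both sexes.

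A second list of 57 replication genes that are no members was read in the same fit, with 56 in the table and all 56 tested. At 48 h, 25 of them were called lower and 1 higher in KKO than in WT cells. Of all genes, 11.9% were called lower and 12.4% higher. At 24 h 0 were called in either direction, where 2.33% of all genes were. Over time 46 were called lower and 2 higher in KKO cells, where 33.4% and 34.4% of all genes were. In WT cells 44 were called lower and 3 higher, where 29.7% and 31% of all genes were. Those lower in KKO cells at 48 h included Exo1, the exonuclease of mismatch repair and end resection, at -0.57 ± 0.12 and Dna2, the nuclease-helicase of flap removal, at -0.51 ± 0.10. The higher gene was Pold4, the small subunit of polymerase delta, with 102, 59.9 and 85.3 CPM in KKO and 36.0, 41.7 and 53.7 CPM in WT cells at 48 h, a change of 0.91 ± 0.18 (adjusted p = 0.00434). The groups did not overlap, and replicate 2 was again the KKO library nearest to WT. At 24 h Pold4 had 14.3, 13.9 and 14.2 CPM in KKO and 13.6, 15.4 and 14.9 CPM in WT cells. It rose over time by 2.55 ± 0.19 in KKO cells and by 1.58 ± 0.19 in WT cells, opposite to the catalytic subunit Pold1 at -0.41 ± 0.06 in KKO and -0.28 ± 0.06 in WT cells. Samhd1, which breaks down dNTPs, also rose over time, by 1.39 ± 0.10 in KKO and 1.12 ± 0.10 in WT cells.

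In a list of 35 S-phase control and checkpoint genes, 12 were called lower and 5 higher in KKO than in WT cells at 48 h, where 11.9% of all genes were called lower and 12.4% higher. The number higher is near that share. The 5 higher genes, named after their values were seen, were Ccnd3, Cdk6, Cdkn1a, Cdkn2d and Rbl2. Cdkn1a, the cyclin-dependent kinase inhibitor p21, had 541, 335 and 424 CPM in KKO and 186, 200.5 and 302 CPM in WT cells at 48 h, a change of 0.92 ± 0.21 (adjusted p = 0.0114). Here too the groups were apart and KKO replicate 2 was the nearest to WT. At 24 h it had 80.8, 81.3 and 96.7 CPM in KKO and 70.7, 59.9 and 76.7 CPM in WT cells, and it rose over time by 2.33 ± 0.22 in KKO and 1.73 ± 0.21 in WT cells. Mitosis genes took another course than replication genes. Of 25 mitosis markers, 16 were called higher and 0 lower at 48 h than at 24 h in KKO cells, and all 25 were called higher in WT cells, where 34.4% and 31% of all genes were called higher. At 48 h 6 of the 25 were called lower in KKO than in WT cells, where 11.9% of all genes were, and at 24 h 13 were called higher, where 1.89% of all genes were. Their summed level was 3560 ± 321 CPM in KKO and 4097 ± 278 CPM in WT cells at 48 h, and 2952 ± 207 CPM in KKO and 2352 ± 66.2 CPM in WT cells at 24 h (SD, n = 3 each).

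To compare genes with each other, CPM was divided by the length in kb of the longest principal transcript of each gene, so these levels rest on that transcript model. Pcna was the highest member per kb in every group, at 277 ± 25.0 in KKO and 322 ± 10.4 in WT cells at 48 h, and 468 ± 23.8 in KKO and 469 ± 33.6 in WT cells at 24 h. Gins3 was the lowest, at 5.06 ± 0.815 CPM per kb in KKO and 6.11 ± 0.522 in WT cells at 48 h, and 8.37 ± 0.302 in KKO and 9.03 ± 0.619 in WT cells at 24 h. Within MCM2-7, whose proteins assemble in equal numbers, the levels at 48 h ran from 71.5 CPM per kb for Mcm2 to 137 for Mcm6 in KKO cells and from 87.1 to 161 in WT cells. The partners that complete CMG were lower per kb, with Cdc45 at 38.6 in KKO and 44.5 in WT cells and the GINS genes at 5.06 to 38.1 in KKO and 6.11 to 41.0 in WT cells. Catalytic subunits of the polymerases also differed, with Pold1 at 60.9 ± 2.94 in KKO and 68.3 ± 1.94 in WT cells, and Pole at 15.3 ± 1.54 in KKO and 20.9 ± 2.83 in WT cells at 48 h.

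Since the members moved together over time, their promoters were read for the E2F motif. RefSeq promoter windows of build GRCm38.p6, 250 bases before to 50 after the annotated start, were matched for 40 of the 49 members. The windows of Orc1, Cdc6, Rfc1, Dut, Timeless and E2f1 lay inside the RefSeq spans of their genes. For these members the bases before the gene's 5′ end were not searched, and the counts include their windows. Windows of other members, among them Mcm7, Pola1 and Tk1, reached only part of the 250 bases before that end. The motif was searched on both strands in the form TTCCCGC, in the form TTCGCGC, in the form TTGCCGC and in the form TTGGCGC. It was found in 22 of the 40 member windows (55%), in 17.6% of the 9420 windows of tested genes and in 9.69% of all 27025 windows. The CCAAT box, searched, like the motifs that follow, on both strands as CCAAT, was found in 24 of the 40 (60%), in 39.2% of tested genes and in 37.9% of all windows. The cell cycle homology region of mitosis promoters, searched as TTTGAA, was found in 4 of the 40 (10%), against 11.7% of tested genes and 18.1% of all. The antioxidant response element core of NRF2, searched as TGACNNNGC, was found in 8 of the 40 (20%), against 15% of tested genes and 12.5% of all. An E2F and a CCAAT match overlapped in 3 member windows, and E2F matches overlapped each other in 5. A match is a run of letters and says nothing of whether a factor was bound.

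The windows of 5 members are shown because they span that range among genes described above: Cdc6 and Rpa2 with 1 E2F match, Chaf1b with 2, Mcm6 with 5 that run together in 3 stretches, and Tk1, which went against the other members over time, with 0. They lie at chr11:98907901-98908200 for Cdc6, chr4:132768110-132768409 for Rpa2 and chr16:93883651-93883950 for Chaf1b on the plus strand, and at chr1:128359656-128359955 for Mcm6 and chr11:117825965-117826264 for Tk1 on the minus strand, in build GRCm38.p6, and each is written 5′ to 3′ on the strand of its gene with E2F matches of either orientation in capitals.
Cdc6: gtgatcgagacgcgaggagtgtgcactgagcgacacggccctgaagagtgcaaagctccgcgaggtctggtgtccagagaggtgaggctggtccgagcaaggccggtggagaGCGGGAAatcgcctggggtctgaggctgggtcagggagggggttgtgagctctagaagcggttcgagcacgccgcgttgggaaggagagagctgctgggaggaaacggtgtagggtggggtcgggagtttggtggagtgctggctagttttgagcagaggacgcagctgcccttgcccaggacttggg
Rpa2: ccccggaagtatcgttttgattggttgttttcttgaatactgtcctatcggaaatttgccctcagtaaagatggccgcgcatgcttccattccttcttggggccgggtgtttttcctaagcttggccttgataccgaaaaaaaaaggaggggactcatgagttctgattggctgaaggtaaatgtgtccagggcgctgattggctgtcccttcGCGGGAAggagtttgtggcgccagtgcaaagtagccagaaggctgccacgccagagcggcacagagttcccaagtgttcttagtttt
Chaf1b: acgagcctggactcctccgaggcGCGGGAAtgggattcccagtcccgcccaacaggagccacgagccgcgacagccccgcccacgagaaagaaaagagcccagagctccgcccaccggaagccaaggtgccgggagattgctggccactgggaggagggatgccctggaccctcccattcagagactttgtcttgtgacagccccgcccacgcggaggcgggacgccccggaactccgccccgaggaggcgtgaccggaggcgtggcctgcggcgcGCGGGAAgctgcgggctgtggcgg
Mcm6: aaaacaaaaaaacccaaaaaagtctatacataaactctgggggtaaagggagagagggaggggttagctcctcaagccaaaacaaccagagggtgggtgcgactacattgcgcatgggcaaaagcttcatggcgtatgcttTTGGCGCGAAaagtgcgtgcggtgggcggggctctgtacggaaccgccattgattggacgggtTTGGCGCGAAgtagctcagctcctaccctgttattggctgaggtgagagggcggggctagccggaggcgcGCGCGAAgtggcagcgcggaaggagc
Tk1: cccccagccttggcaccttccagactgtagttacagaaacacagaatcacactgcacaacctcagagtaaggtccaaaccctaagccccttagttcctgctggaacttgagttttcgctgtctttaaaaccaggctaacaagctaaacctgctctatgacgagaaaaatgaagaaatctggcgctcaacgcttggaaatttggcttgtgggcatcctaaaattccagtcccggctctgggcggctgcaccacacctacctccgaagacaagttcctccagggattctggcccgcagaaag
Among the deepest changes over time, the windows of Mcm10 and Tyms held no run of these letters, while Rfc3, whose window held 2, changed by -0.40 ± 0.06 in KKO and -0.47 ± 0.06 in WT cells. The window of E2f1 (chr2:154569377-154569676, minus strand) held none either. Like the window of Cdc6, it lies inside the RefSeq span of its gene (chr2:154559400-154569892 for E2f1). The bases before the gene's 5′ end were therefore not searched.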

How the data were processed

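The deposited table holds RSEM expected counts per gene, made by the authors and not normalized; the RSEM step, FastQC and build mm10 are named per the submitters' processing notes, and the design text names a human reference instead. Reads shared among genes leave 10.8 to 12.7% of values not whole, in 16 members too. The table has 27 date-like symbols, and 1 row with no gene name was left out. Another 6 columns were not used. After rounding to whole counts, genes were tested in R 4.3.3 with edgeR 4.0.16 (filterByExpr, TMM, robust quasi-likelihood F tests, 12 libraries in 1 fit, 8 residual degrees of freedom), 2-sided, with Benjamini-Hochberg adjustment over 13196 genes. limma 3.58.1 and DESeq2 1.42.0 were alternatives, with other scalings, filters, a replicate block and left-out libraries. The fit was tested on simulated data and recovered 64 to 78% of 2-fold changes. Of changes just above 1.17-fold, the members' median genotype effect at 48 h, it recovered 7% at 48 h and 13% at 24 h. It recovered 1% for the difference of the effects, and 9% and 10% over time in KKO and WT cells. Most changes of that size were thus missed. Of the simulated calls, 11% were false between the genotypes at 24 h, and 4.41 to 7.06% in the other comparisons. Replicates correlated at Spearman's rho of 0.989 to 0.997 across genes. Deviations from the group means were correlated between libraries of the same replicate number. Across time the values were 0.126, 0.103 and 0.343 in WT and 0.0287, 0.0852 and 0.0408 in KKO cells. Between the genotypes they were -0.317, -0.00299 and 0.224 at 24 h and -0.249, 0.106 and 0.135 at 48 h. These values do not settle which libraries were paired. In KKO cells, replicates 1 and 3 carried different sex-linked transcripts at the 2 times, so a block by replicate number joined unlike libraries there. Transcript lengths are from GENCODE on GRCm38. In genotype comparisons up to 20 called members by smallest p, and over time up to 12 by largest change, get full values. The members and lists were chosen with earlier results of these data known.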

Additional observations from a re-analysis of the deposited data

Results flagged for a closer look

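Chaf1b (the CAF-1 subunit p60) had a KKO effect that differed between the times by the test of the difference itself. The effect was -0.41 ± 0.08 at 48 h and 0.05 ± 0.07 at 24 h on the log2 scale, and the difference was -0.45 ± 0.11 (edgeR quasi-likelihood, adjusted p = 0.0303), with all 3 KKO libraries below all WT libraries at 48 h and overlapping groups at 24 h. The call was lost without any 1 of 10 of the libraries, and with the replicate number as a block (adjusted p = 0.0516), which joined unlike libraries in KKO cells.

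Mcm10 had every KKO library below every WT library at 48 h and above every WT library at 24 h, where the genotypes were not called different (0.07 ± 0.10, adjusted p = 0.939). Of all 13196 genes, 1311 had every KKO library above at 24 h and 2133 had every one below at 48 h. At 48 h it averaged 77.2 ± 13.9 CPM in KKO and 105 ± 10.2 CPM in WT cells, and at 24 h 162 ± 2.52 CPM in KKO and 154 ± 1.74 CPM in WT cells (SD, n = 3 each). The difference of the effects was -0.51 ± 0.14 and was not called (adjusted p = 0.0559), and at 48 h the highest KKO and the lowest WT library were equal to 3 digits.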

How the results depend on the processing

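No direction reversed among the counts and named members under any alternative that was run. The 27 members called lower at 48 h were 23 with DESeq2's size factors in edgeR, 28 with DESeq2 and 28 with limma-voom. Of all 13196 genes, 1485, 1618 and 1546 were called lower in that order, against 1574 in the main fit. The count was 4 in a fit of the 6 libraries of 48 h alone, where 5.13% of all genes were called lower. It was also 4 without the 2 libraries with transcripts of both sexes (chosen after seeing the data), where 4.84% of all genes were. At an adjusted p under 0.01 it was 6, where 631 of all 13196 genes were called lower. When 1 library was left out it was 5 to 46, where 4.75 to 21.1% of all genes were. With the Y-linked level as a covariate, also chosen after seeing the data, 20 members were called lower, where 1363 of all 13196 genes were. With the replicate block 25 members were, where 1391 of all genes were. For the difference of the effects, where 1 member was called, DESeq2 called 7 lower, where 4.69% of all genes were. The replicate block called 3 lower (Mcm10, Pole and Tyms, without Chaf1b), where 3.63% of all genes were. The Y-linked covariate called 9 lower, where 5.69% of all genes were. The adjusted p under 0.01 and the fit without the libraries of both sexes called 0, and leaving out 1 library 0 to 37. At 24 h the count was 0 in the alternatives run, except 2 in a fit of the 6 libraries of 24 h alone, where 524 of all 12627 genes tested were called. The time calls were 49 in KKO and 46 to 49 in WT cells throughout, and the replicate block changed no other call count by over 1.5 times. The causes of these shifts were not tested. The lowest expected count of a member in a library was 226.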
